A study of Mus musculus with 33 samples.

Results

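The promoters of 44 mouse genes for FGF, TGF-beta, BMP and Hedgehog signals were followed in wild type (WT) and Uhrf1 knockout (KO) cells, out of 22367 protein-coding genes with a start on chromosomes 1 to 19, X or Y. The genes were chosen by name: 16 FGF ligands, 3 FGF homologous factors, 11 BMP and GDF ligands, 11 ligands of the Nodal, activin and TGF-beta group, and 3 Hedgehog ligands. Mouse embryonic stem cells (mESC) were compared with the embryoid bodies (EBs) they form, cell aggregates undergoing differentiation, after 1, 2 and 3 weeks. ChIP-seq, the sequencing of DNA pulled down by an antibody to a histone mark or a DNA-bound protein, was done for H3K4me3 and H3K27me3 at all 4 stages in both genotypes. In mESC it was also done for H3K9me3, Oct4, Sox2 and Nanog in both genotypes and for Uhrf1 in WT. WT (the E14 line) and KO were 1 line each, obtained from another laboratory. Stem cells were grown with leukemia inhibitory factor on gelatin or on feeder fibroblasts. Each genotype, stage and target had 1 library, so replicate error is unknown and no test is given. Intervals are Wilson 95% intervals and cover counting error over promoters or sites only.

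FGF ligands act through receptor tyrosine kinases, and in mouse stem cells FGF signalling is known for driving the exit from self-renewal. Nodal, activins and TGF-betas signal through Smad2 and Smad3, BMPs and several GDFs through Smad1, Smad5 and Smad9, and Hedgehog proteins through Patched and Smoothened to the Gli factors. These signals pattern the early embryo, and many of their genes are held in stem cells by bivalent promoters, which carry H3K4me3, typical of active promoters, together with H3K27me3, which Polycomb complexes lay down. Not all 44 genes encode activating ligands: Lefty1 and Lefty2 block Nodal, the Inha product forms inhibins that oppose activins, and Fgf11, Fgf12 and Fgf14 encode proteins that stay inside the cell.

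A promoter was called active with an H3K4me3 domain within 2 kb of the gene start, repressive with an H3K27me3 domain within 5 kb, bivalent with both and unmarked with neither. Some lists stood apart from their counterparts. The KO mESC H3K27me3 list held 722 domains over 84.1 Mb against 8161 domains over 959.7 Mb in WT, and the median of its mean counts was 0.914 reads per bin against 4.93. The KO Oct4 list held 576 summits against 12898, while KO Sox2 and Nanog held 20755 and 10632 against 5190 and 2390. Of 8 mESC marker genes, 7 carried H3K4me3 in WT mESC and 7 in KO mESC. In WT mESC 3 of the 8 were active, 4 bivalent (Pou5f1, Sox2, Klf4 and Tbx3) and 1 repressive (Esrrb). In KO mESC 6 were active, 1 bivalent and 1 unmarked. H3K27me3 calls in WT mESC thus also fell on marker genes of the stem cells themselves. H3K4me3 bins were 1300 bp in both mESC lists and 350 or 400 bp in the EB lists. The median H3K4me3 domain was 9100 bp in WT and 10400 bp in KO mESC, and 2800 to 4800 bp in the EB lists. Lengths given below are thus not on 1 scale between mESC and EBs. List length, depth and genotype cannot be told apart with 1 library each.

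Bivalent promoters were common among the signal genes in WT and fewer in KO at each stage as the lists stand. With lists of equal number, in which the longer list is cut to its highest scores, the counts in WT and KO were 6 and 5 in mESC and 15 and 13 at week 3. In WT mESC 20 of 44 (45.5%, interval 31.7 to 59.9) were bivalent against 18.3% of all coding genes. At weeks 1, 2 and 3 the WT counts were 23, 22 and 27, against 15.2, 13.7 and 19.6% of all genes. In KO mESC 5 were bivalent (4.29% of all genes), and at weeks 1, 2 and 3 the KO counts were 12, 16 and 13, against 10.7, 13.4 and 11.3%. The signal genes were thus bivalent more often than coding genes at large in both genotypes, and 35 of them were bivalent in WT at 1 or more stages (30.2% of all genes) against 22 in KO (21.5%).

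**Figure D1:**
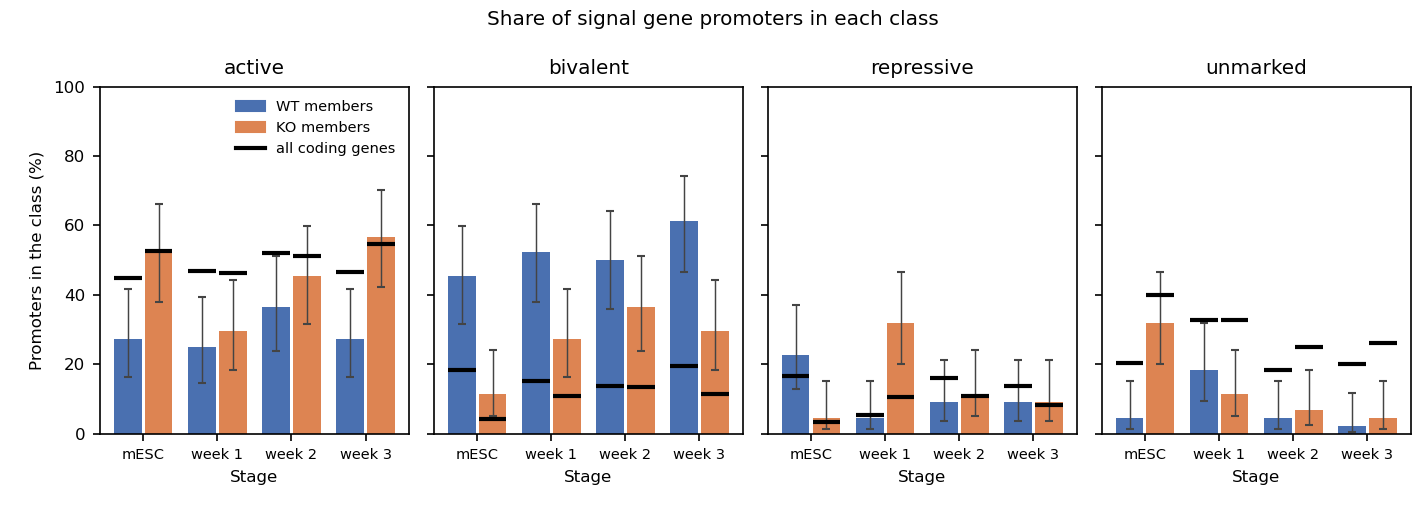
Share (%) of the 44 signal gene promoters in each class by stage, in WT (blue) and Uhrf1 KO (orange), with Wilson 95% intervals as bars and the share over all coding genes as a black line. Bivalent promoters stand at 45.5 to 61.4% in WT and 11.4 to 36.4% in KO, and repressive promoters are highest in KO at week 1 (31.8%, against 10.4% of all genes).

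The class differed between genotypes at 31 of 44 promoters in mESC (36.4% of all genes). At weeks 1, 2 and 3 it differed at 20, 16 and 15, against 18.1, 29.0 and 23.0% of all genes. These shares of 70.5, 45.5, 36.4 and 34.1% lie above the background, but the signal genes also start from other classes. Among promoters bivalent in WT, 15.0% of the signal genes were bivalent in KO mESC against 14.6% of all such genes. For weeks 1, 2 and 3 the shares were 43.5, 59.1 and 48.1% of the signal genes against 50.9, 54.5 and 46.7% of all, so bivalent signal genes kept their class about as often as other bivalent genes. Over the 4 stages 5 genes differed throughout (2.26% of all genes), namely Fgf3, Fgf15, Bmp4, Inhbb and Dhh, and 5 never did (41.7%), namely Fgf11, Gdf6, Ihh, Inha and Tgfb1. The mESC difference at Fgf15 rests only on a KO H3K27me3 domain with a mean count of 0.00420 reads per bin.

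**Figure D2:**
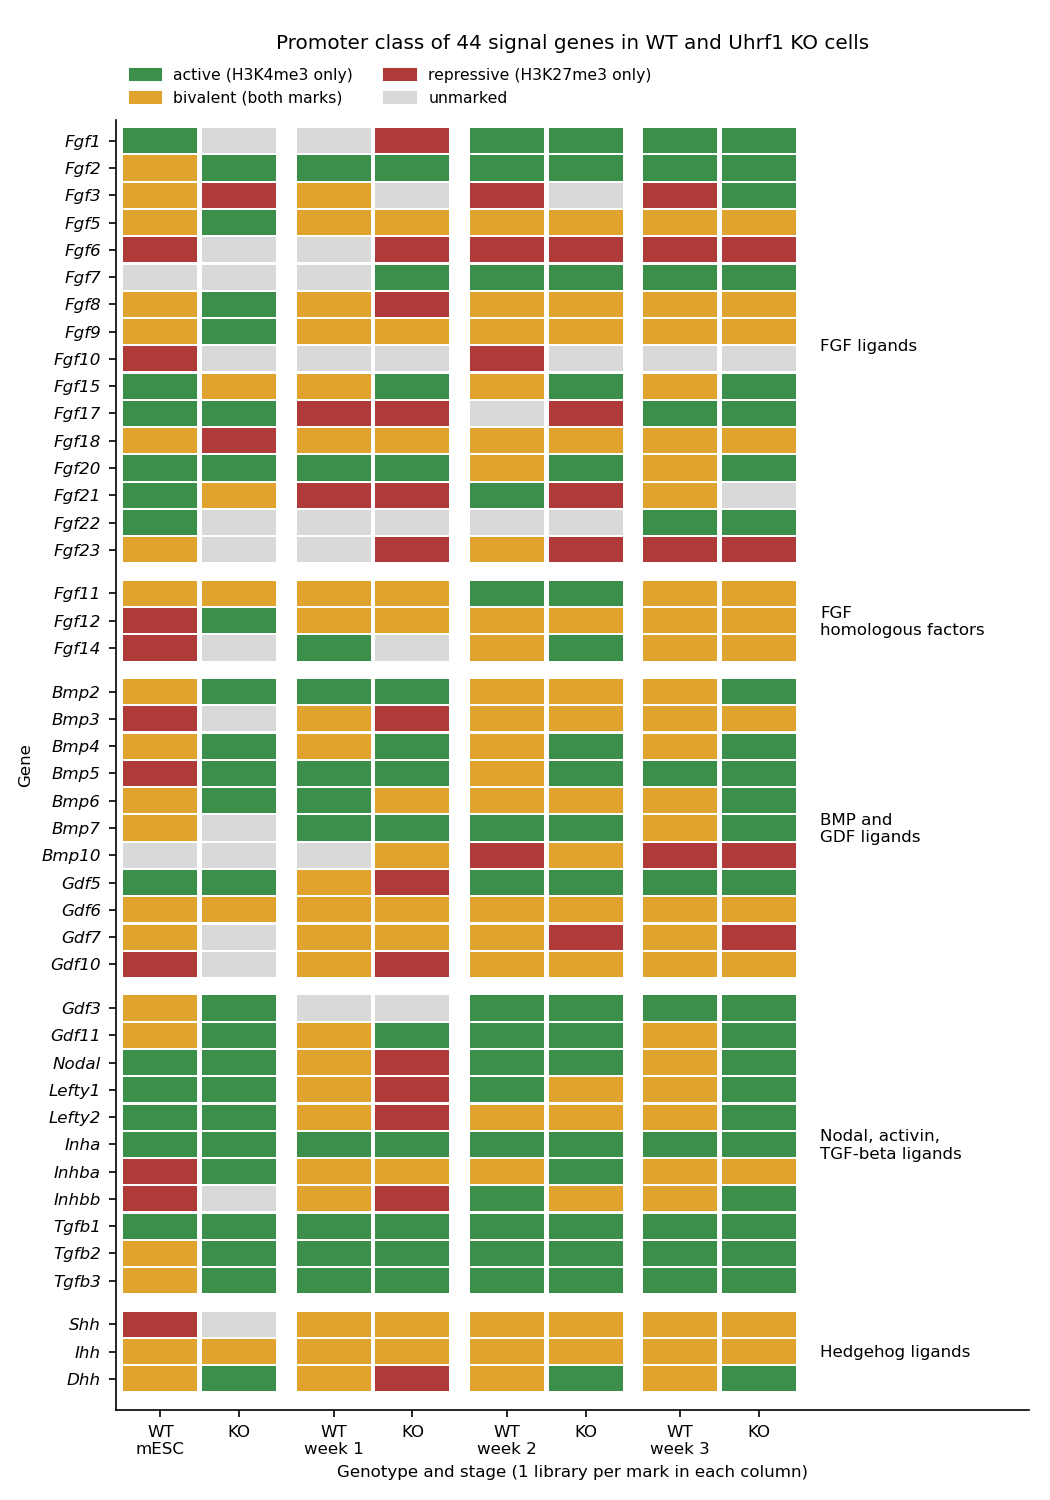
Promoter class of each of the 44 genes (rows, by family) in WT and Uhrf1 KO at 4 stages (columns). Inha and Tgfb1 are active in all 8 columns and Gdf6 and Ihh bivalent in all 8, while Bmp4 is bivalent in every WT column and active in every KO column.

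In mESC most of the differing calls were H3K27me3 domains in WT with none in KO, a count that changed with the length of the lists. H3K27me3 was present at 30 signal genes in WT (34.9% of all genes) and 7 in KO (7.57%). It was absent in KO from 25 of the 30 genes with it in WT (83.3%, interval 66.4 to 92.7), against 84.5% of all such genes, a share near the background. With lists of equal number it was absent in KO from 5 genes, and H3K4me3 from 6, and with domains at or above the median score the counts were 16 and 10. The 12 bivalent genes that were active in KO (60.0% of 20, against 60.5% of all bivalent genes) were Fgf2, Fgf5, Fgf8, Fgf9, Bmp2, Bmp4, Bmp6, Gdf3, Gdf11, Tgfb2, Tgfb3 and Dhh. Bmp7 and Gdf7, together with Fgf23, carried neither mark in KO (15.0% of 20, against 19% of all bivalent genes). Fgf3 and Fgf18 were repressive (10% of 20, against 5.80%). The count from bivalent to active was 3 with lists of equal number and 3 with domains at or above the median score.

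H3K4me3 moved in both directions in mESC. It was absent in KO at 7 of the 32 genes with it in WT (21.9%, interval 11.0 to 38.8, against 12.0% of all such genes): Fgf1, Fgf3, Fgf18, Fgf22, Fgf23, Bmp7 and Gdf7. The 12.0% rests on another mix of WT classes, with 10030 of 14130 genes active, while 20 of the 32 were bivalent. Among these 20, 3 were unmarked in KO (15.0% against 19% of all bivalent genes) and 2 repressive (10% against 5.80%). Among the 12 active in WT, 2 were unmarked in KO (16.7% against 6.34% of all active genes) and 0 repressive (against 0.439%). The WT domain at Fgf1 was near the floor of its list, with a mean count of 6.02 reads per bin, at percentile 0.314. H3K4me3 was present in KO alone at 3 of 12 genes without it in WT (25.0%, interval 8.89 to 53.2, against 3.75%). These were Fgf12, Bmp5 and Inhba, all repressive in WT and active in KO (2.86% of all repressive genes). Fgf12 encodes an intracellular partner of sodium channels, Bmp5 a BMP of mesoderm and skeleton, and Inhba the subunit of activin A. The other 7 repressive genes, Fgf6, Fgf10, Fgf14, Bmp3, Gdf10, Inhbb and Shh, were unmarked in KO (87.1% of all repressive genes), and Fgf7 and Bmp10 were unmarked in both.

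The 7 H3K27me3 calls in KO mESC rest on thin signal. The mean count per bin was 4.60 at Fgf11, 2.20 at Ihh, 0.328 at Fgf21, 0.238 at Fgf18 and 0.0782 at Gdf6. At Fgf3 and Fgf15, which share a domain of 366 kb, it was 0.00420. Fgf11 alone lay above 3.04, the lowest mean count of the WT list, and with that minimum applied to KO, an alternative chosen after seeing the data, 1 signal gene was bivalent in KO mESC in place of 5. The Fgf11 domain reached only 8.59% of its window in KO, against 100% in WT.

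At week 1 the signal genes differed from mESC in the mark that was missing: H3K4me3 was absent in KO from 11 of 34 genes with it in WT (32.4%, interval 19.1 to 49.2), against 10% of all such genes. They were Nodal, Lefty1, Lefty2, Inhbb, Bmp3, Gdf5, Gdf10, Fgf3, Fgf8, Fgf14 and Dhh. Of 23 bivalent promoters, 9 were repressive in KO (39.1%, interval 22.2 to 59.2, against 20.3% of all bivalent genes), and 3, Fgf15, Bmp4 and Gdf11, were active (13.0% against 24.1%). H3K27me3 was present at 25 genes in WT (20.5% of all genes) and 26 in KO (21.1%), and was absent in KO from 4 of the 25, these 3 and Fgf3 (against 27.7% of all such genes).

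The 11 genes mostly had short H3K4me3 domains in WT at week 1. Their summed domain length ran from 0.800 kb at Inhbb to 12.0 kb at Dhh with a median of 2800 bp, against a median of 7600 bp at the 23 genes with H3K4me3 in both genotypes. Over all coding genes the medians were 3200 and 7200 bp. The later KO lists held the mark at most of them: 10 of the 11, all but Fgf3, carried H3K4me3 in KO at week 2 (70.3% of all such genes). At week 3, 11 of 11 did (83.4%). The KO H3K4me3 list of week 1 covered 73.4 Mb, against 107.0 Mb in WT at week 1. In KO it was 154.5 and 165.7 Mb at weeks 2 and 3. The part of list coverage in the absence at week 1 was not tested. Among cell type markers with H3K4me3 in WT at week 1, it was absent in KO from 3 of 4 neuroectoderm markers (Pax6, Tubb3 and Neurod1), 2 of 5 mESC markers (Pou5f1 and Zfp42), 2 of 6 mesoderm markers (T and Mesp1), 1 of 6 fibroblast markers (Thy1) and 0 of 4 endoderm markers. The part of cell composition in the result was not tested.

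At week 2 H3K4me3 was nearly the same, being absent in KO from 3 of 38 genes, Fgf21, Fgf23 and Gdf7 (7.89% against 5.33% of all such genes). H3K27me3 was absent in KO from 9 of 26 genes (34.6%, interval 19.4 to 53.8, against 51.2%), and 7 bivalent genes were active in KO: Fgf14, Fgf15, Fgf20, Bmp4, Bmp5, Inhba and Dhh (31.8% against 35.3%). It was present in KO alone at Fgf17, Fgf21, Lefty1 and Inhbb (22.2% of 18 genes against 13.6%).

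At week 3 H3K27me3 was absent in KO from 14 of 31 genes (45.2%, interval 29.2 to 62.2, against 50.1% of all such genes) and present in KO alone at 0 of 13 (interval up to 22.8%, against 4.32%). The 12 bivalent genes that were active in KO (44.4% of 27 against 46.8%) were Fgf15, Fgf20, Bmp2, Bmp4, Bmp6, Bmp7, Gdf11, Nodal, Lefty1, Lefty2, Inhbb and Dhh. Where KO kept the mark its mean count was 4.26 to 11.7 reads per bin with a median of 5.64, against 7.86 to 17.7 and 9.62 in WT, and 12 of the 17 KO genes lay below the lowest count of the WT list, 6.34. With those left out, H3K27me3 was absent in KO from 26 genes, 21 bivalent genes were active in KO, 4 genes were bivalent in KO at week 3 in place of 13, and the class differed at 27 genes in place of 15 (32.9% of all genes under the same rule). With lists of equal number the mark was absent in KO from 5 genes and 4 went from bivalent to active, and with 50% of the window covered from 9 and 6.

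Nodal and both Lefty genes differed at weeks 1 and 3 in the same way. Nodal, which patterns the primitive streak and is active in stem cells, was active, bivalent, active and bivalent in WT at mESC and weeks 1, 2 and 3, and active, repressive, active and active in KO. H3K4me3 domains at its start summed to 20.8, 2.0, 10 and 11.6 kb in WT and to 48.1, 0, 9.80 and 9.60 kb in KO. H3K27me3 domains measured 7.00 kb at week 1 and 7.20 kb at week 3 in WT, and 9.0 kb at week 1 alone in KO.

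Lefty1 and Lefty2, whose starts lie 41.9 kb apart on chromosome 1, were active in both genotypes in mESC, bivalent in WT against repressive in KO at week 1, and bivalent against active at week 3. At week 2 Lefty1 was active in WT and bivalent in KO, while Lefty2 was bivalent in both. At Lefty1 H3K4me3 summed to 22.1, 9.60, 13.6 and 22.8 kb in WT and to 66.3, 0, 15.1 and 13.2 kb in KO. At Lefty2 it summed to 32.5, 1.20, 2.80 and 29.6 kb in WT and to 66.3, 0, 28.4 and 30.8 kb in KO. The 2 genes lay in a single H3K4me3 domain in KO mESC and in a single H3K27me3 domain of 64.8 kb in KO at week 2, so their values there are not independent.

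Gdf3, a Nodal-related ligand of pluripotent cells, differed only in mESC, where a WT H3K27me3 domain of 12.6 kb reached 13.0% of its window, with H3K4me3 of 16.9 kb in WT and 15.6 kb in KO. Both genotypes lacked both marks there at week 1 and were active later. Inhbb, the subunit of activin B, differed at 4 of 4 stages. It was repressive, bivalent, active and bivalent in WT and unmarked, repressive, bivalent and active in KO, with H3K4me3 domains of at most 2.1 kb at any stage. Its H3K27me3 measured 23.4, 24.5, 0 and 14.4 kb in WT and 0, 75.6, 45.0 and 0 kb in KO.

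Among the BMPs, Bmp4, which induces mesoderm and supports stem cell self-renewal, was bivalent in WT and active in KO at 4 of 4 stages, a pattern held by 65 coding genes (0.291%). H3K4me3 was present in both throughout, at 23.4, 12.0, 8.40 and 13.2 kb in WT and 23.4, 7.70, 12.6 and 14 kb in KO. Its H3K27me3 domains measured 66.6, 7.00, 39.6 and 104 kb in WT and were absent from all 4 KO lists. Bmp4 was active in KO at all stages in each of the 7 alternatives for the classes. Its WT promoter was called active in place of bivalent at week 1 when domains had to cover 50% of the window, at weeks 1 and 2 with domains at or above the median score, and in mESC with lists of equal number.

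Bmp2, a ligand of heart and bone formation, was bivalent in WT mESC and active in KO, active in both at week 1, bivalent in both at week 2, and bivalent in WT against active in KO at week 3. Its H3K4me3 summed to 7.80, 7.60, 8.40 and 7.60 kb in WT and to 10.4, 8.40, 4.90 and 8.0 kb in KO. Bmp7, of kidney and eye development, had H3K27me3 in WT mESC (30.6 kb) and week 3 (21.6 kb) and at no stage in KO, with H3K4me3 of 7.80, 9.20, 13.2 and 10.8 kb in WT and 0, 8.75, 9.10 and 6.40 kb in KO. Bmp5 was repressive in WT mESC, with a domain of 126 kb, and active in KO at 4 of 4 stages, with H3K4me3 of 6.50 to 9.45 kb. Bmp6, an iron-regulating BMP, moved in both directions, with H3K27me3 in KO alone at week 1 (12.6 kb) and in WT alone in mESC and at week 3. Its H3K4me3 summed to 5.20, 8.0, 10.4 and 6.0 kb in WT and to 7.80, 1.05, 3.15 and 5.60 kb in KO.

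Gdf6, a joint-forming ligand, was bivalent in both genotypes throughout, as were Ihh and 0.684% of all genes. Both were active in KO mESC when the lowest WT mean count was applied. Its H3K4me3 summed to 9.10, 6.80, 9.20 and 6.40 kb in WT and to 7.80, 5.60, 7.00 and 6.80 kb in KO. Gdf7, of the spinal cord roof plate, was bivalent in WT throughout and in KO at week 1 only, where its H3K4me3 measured 0.350 kb, a single bin, against 3.20 kb. It carried H3K27me3 of 14.4 to 22.8 kb at every WT stage and of 10.8 to 19.8 kb in KO EBs. Gdf11, of axial patterning, was active in KO at 4 of 4 stages and bivalent in WT at all but week 2, with H3K27me3 of 16.2, 5.25 and 16.2 kb. Its H3K4me3 summed to 50.7, 11.6, 11.2 and 12.0 kb in WT and to 52.0, 7.70, 39.5 and 10 kb in KO. Bmp10, a heart ligand, was bivalent in KO at weeks 1 and 2, with H3K4me3 of 1.05 kb each time, and had no H3K4me3 in WT. Bmp3, Gdf5 and Gdf10 differed at week 1 as given above, and Bmp3 and Gdf10 also in mESC.

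The FGF ligands ranged from 1 to 4 stages with a different class. Fgf5, a marker of primed epiblast, was bivalent in WT at 4 of 4 stages and differed only in mESC, where an H3K27me3 domain of 558 kb in WT had no KO counterpart. H3K4me3 at Fgf5 summed to 10.4, 6.0, 7.60 and 4.40 kb in WT and to 13.0, 4.20, 4.55 and 6.40 kb in KO. Fgf8, of gastrulation and limb growth, had H3K4me3 of 22.1, 10.4, 9.20 and 8.40 kb in WT and 70.2, 0, 11.2 and 7.60 kb in KO. Its H3K27me3 was present throughout in WT and from week 1 on in KO, so Fgf8 was repressive in KO at week 1 and bivalent in both genotypes later. At week 3 the H3K4me3 at Fgf8 covered 5.12% of the window in KO and 45.1% in WT.

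Fgf15, which signals in the brain and gut, was active in WT mESC and bivalent in KO, and the reverse at weeks 1, 2 and 3. Its H3K27me3 in WT measured 7.00, 84.6 and 5.40 kb at the 3 EB stages, and its KO mESC call is the near-empty domain named above. Its H3K4me3 summed to 27.3, 5.60, 6.40 and 7.60 kb in WT and to 26.0, 2.1, 5.95 and 6.80 kb in KO. Fgf3, of inner ear development, starts 58.4 kb away and differed at 4 of 4 stages, from bivalent, bivalent, repressive and repressive in WT to repressive, unmarked, unmarked and active in KO. Its only H3K4me3 domain in KO EBs, at week 3, measured 0.800 kb and covered 9.70% of the window, while in WT it carried 3.90 kb in mESC and 4.40 kb at week 1. That WT domain of week 1 had a mean count of 5.45 reads per bin, at percentile 1.61 of its list.

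Fgf17, a midbrain ligand, was active in both genotypes in mESC and at week 3, repressive in both at week 1, and unmarked in WT against repressive in KO at week 2, with H3K4me3 of 27.3 and 10.8 kb in WT and 24.7 and 23.6 kb in KO at the stages where it was active. Fgf2, a ligand used in stem cell culture, had H3K27me3 in WT mESC alone (140 kb) and was active at all other stages in both genotypes, with H3K4me3 of 5.60 to 9.60 kb in WT and 4.20 to 11.7 kb in KO over the 4 stages. Fgf21, a metabolic hormone of liver, was active, repressive, active and bivalent in WT and bivalent, repressive, repressive and unmarked in KO. H3K4me3 there summed to 16.9, 0, 5.60 and 1.60 kb in WT and to 6.50 kb in KO mESC alone, and its H3K4me3 at week 3 in WT reached 1.5% of the window. Fgf23, a phosphate-regulating hormone, shared H3K27me3 domains with Fgf6, 57.4 kb away, in 5 lists, and was bivalent, unmarked, bivalent and repressive in WT but unmarked and then repressive at weeks 1, 2 and 3 in KO. Its H3K4me3 measured 11.7 kb in mESC and 1.60 kb at week 2 in WT and was absent in KO.

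The remaining FGF genes differed at 1 or 2 stages, or at 3 for Fgf14, or at none for Fgf11. Fgf9 and Fgf18 were bivalent in WT throughout and differed in mESC only. Fgf20 was active in KO at 4 of 4 stages and bivalent in WT at weeks 2 and 3, inside H3K27me3 domains of 1352 and 1350 kb. Fgf11 was bivalent in both genotypes at all but week 2, where both were active, with H3K4me3 of 264, 12.0, 14 and 14.4 kb in WT and 26.0, 11.2, 26.9 and 32.8 kb in KO. Its bivalent call in KO mESC rests on an H3K27me3 domain that reached 8.59% of the window. Fgf14 was repressive, active, bivalent and bivalent in WT and unmarked, unmarked, active and bivalent in KO. Fgf14 carried H3K4me3 in KO only from week 2 (3.15 kb), against 3.20 kb at week 1 in WT. Fgf7 carried H3K4me3 in KO already at week 1 (1.05 kb) and in WT from week 2, Fgf22 differed in mESC only, Fgf1 and Fgf6 differed in mESC and at week 1, and Fgf10 differed in mESC and at week 2.

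The TGF-beta genes and Inha differed in few places. Tgfb1 and Inha were active in both genotypes at 4 of 4 stages, as were 30.0% of all coding genes, and kept all 8 classes under each of the 7 alternatives for the classes. H3K4me3 summed to 37.7, 17.6, 5.20 and 22.8 kb in WT and to 18.2, 4.55, 20.6 and 21.6 kb in KO at Tgfb1. At Inha it summed to 68.9, 11.6, 4.0 and 8.80 kb in WT and to 26.0, 3.50, 5.95 and 8.40 kb in KO. Tgfb2 and Tgfb3 differed in mESC only, where H3K27me3 domains of 12.6 and 5.40 kb in WT had no KO counterpart, and H3K4me3 at Tgfb2 ran from 6.50 to 28.4 kb in WT and from 6.50 to 9.45 kb in KO. Inhba was active in KO mESC, with 7.80 kb of H3K4me3, and at week 2.

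Among the Hedgehog ligands, Shh, which patterns the neural tube and limb, was repressive in WT mESC (H3K27me3 of 88.2 kb), unmarked in KO, and bivalent in both genotypes at all EB stages. Its H3K4me3 in EBs summed to 4.80, 12.8 and 11.2 kb in WT and 0.350, 8.05 and 6.40 kb in KO, shorter in KO each time. The 0.350 kb at week 1 was a single bin that covered 8.75% of the window, so the bivalent call in KO rests on it. Ihh, of cartilage growth, was bivalent in both throughout, although in KO its H3K4me3 covered 8.87% of the window at week 1 and 17.6% at week 2. Its H3K27me3 domains were long in both, at 131 to 400 kb in WT and 135 to 382 kb in KO. Dhh, of testis and nerve sheath, was bivalent in WT at 4 of 4 stages and in KO at none, being active, repressive, active and active. Its H3K4me3 summed to 92.3, 12.0, 8.0 and 10.4 kb in WT and to 33.8, 0, 11.6 and 13.2 kb in KO. Bmp4 and Dhh were the 2 signal genes bivalent in WT throughout and in KO never, as were 0.474% of all genes.

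Domain lengths were compared where both genotypes had H3K4me3. At week 1 the median length was 4550 bp in KO against 7600 bp in WT, a median log2 ratio of -0.71 over 23 genes against -0.47 over all coding genes. The KO length was over 2-fold shorter at 11 of 23 (47.8% against 23.9% of all such genes) and over 2-fold longer at 0 (0.632% of all such genes). Median log2 ratios were 0.00 in mESC, -0.37 at week 2 and -0.07 at week 3, against 0.00, -0.23 and 0.00 over all genes. When only the length within 2 kb of the start was counted, 7 genes were over 2-fold shorter at week 1, and with domains at or above the median score, 3. Bins were 400 bp in WT and 350 bp in KO at week 1.

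**Figure D3:**
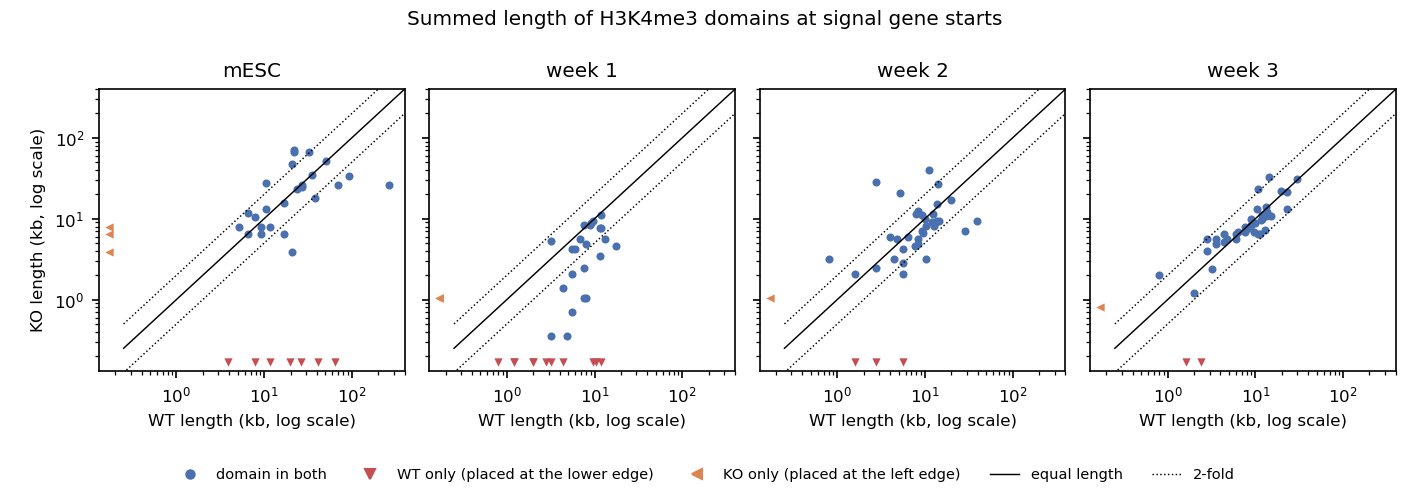
Summed length (kb, log scales) of the H3K4me3 domains at each signal gene start in WT (horizontal) and Uhrf1 KO (vertical) at each stage, with lines of equal length and of 2-fold difference. At week 1 the points lie mostly below the line of equal length and 11 genes had a domain in WT only (red triangles).

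Factor sites in mESC were sought within 10 kb of each start. Oct4, the POU factor of pluripotent cells, had a summit near 10 signal genes in WT (22.7%, interval 12.8 to 37.0, against 12.5% of all genes): Nodal, Lefty1, Lefty2, Gdf3, Fgf1, Fgf5, Fgf6, Fgf9, Fgf15 and Fgf17. In KO there was 0 (interval up to 8.03%, against 0.335%). Sox2, its partner on DNA, had summits near 9 in WT (9.0%) and 24 in KO (37.8%), and Nanog near 6 in WT (2.54%) and 11 in KO (10.2%). The KO lists were also the longer ones, and with lists of equal number Oct4 was near 3 genes in WT and 0 in KO, Sox2 near 6 genes in KO and Nanog near 2.

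The tallest Oct4 summits in WT, all at genes of the Nodal branch, are shown with 50 bases either side of the summit. Sequences are of the plus strand of mm9 (NCBIM37), and capitals mark the Oct4 core ATGCAAA or the Sox cores CATTGT and CTTTGT on either strand, which do not overlap each other here. The Lefty2 window is chr1:182818922-182819022, the Lefty1 window chr1:182863957-182864057 and the Nodal window chr10:60878777-60878877, all intergenic and upstream of their genes. The Gdf3 window, chr6:122558584-122558684, is in an intron of Gdf3.
Lefty2: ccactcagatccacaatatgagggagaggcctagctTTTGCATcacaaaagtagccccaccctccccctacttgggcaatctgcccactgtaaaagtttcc
Lefty1: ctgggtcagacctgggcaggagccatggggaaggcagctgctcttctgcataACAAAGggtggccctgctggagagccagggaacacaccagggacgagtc
Nodal: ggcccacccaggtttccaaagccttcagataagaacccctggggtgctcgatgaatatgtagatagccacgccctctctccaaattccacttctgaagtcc
Gdf3: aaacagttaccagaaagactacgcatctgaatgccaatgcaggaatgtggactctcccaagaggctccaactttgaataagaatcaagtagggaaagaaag

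Of the 4 windows shown, that of Lefty2 held an exact Oct4 core and that of Lefty1 a Sox core. Over all WT Oct4 summits 13.0% of windows held the Oct4 core and 20.3% a Sox core, and over windows of 101 bases at coding gene starts 1.14 and 7.96%. The Nodal and Gdf3 windows held neither, which says only that these letters are not there.

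The heights of these sites were 134 reads at Lefty1, 124 at Nodal, 120 at Lefty2 and 86 at Gdf3. They lay at -1146, -1893, -4267 and 1471 bp from the start, in that order, where a minus sign means upstream. Over the 11 sites the median height was 48.0, against 37.0 at WT Oct4 summits near any coding gene. None had a KO Oct4 summit within 100 bp (1.65% of Oct4 summits near genes). A KO Sox2 summit lay within 100 bp of 9 of 11 (81.8%, interval 52.3 to 94.9, against 53.6%) and a KO Sox2 or Nanog summit at 10 of 11 (90.9% against 59.5%). At the same sites WT Sox2 lay at 5 of 11 and WT Nanog at 4 of 11 (29.6 and 13.9% of Oct4 summits near genes), from lists shorter than those of KO.

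At the 4 tallest sites Sox2 was called in both genotypes. The Sox2 height was 57 reads in WT and 75 in KO at Lefty1, 29 and 48 at Nodal, 60 and 99 at Lefty2, and 23 and 55 at Gdf3, higher in KO each time, while the sources used here do not say whether the study's scaling of ChIP-seq reads to mapped totals was applied to these heights. Nanog was called in both at Nodal (23 and 13 reads) and Lefty2 (34 and 40), in KO only at Gdf3 (18), and in neither at Lefty1. These 4 promoters were active in KO mESC, and Nodal, Lefty1 and Lefty2 also in WT.

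**Figure D4:**
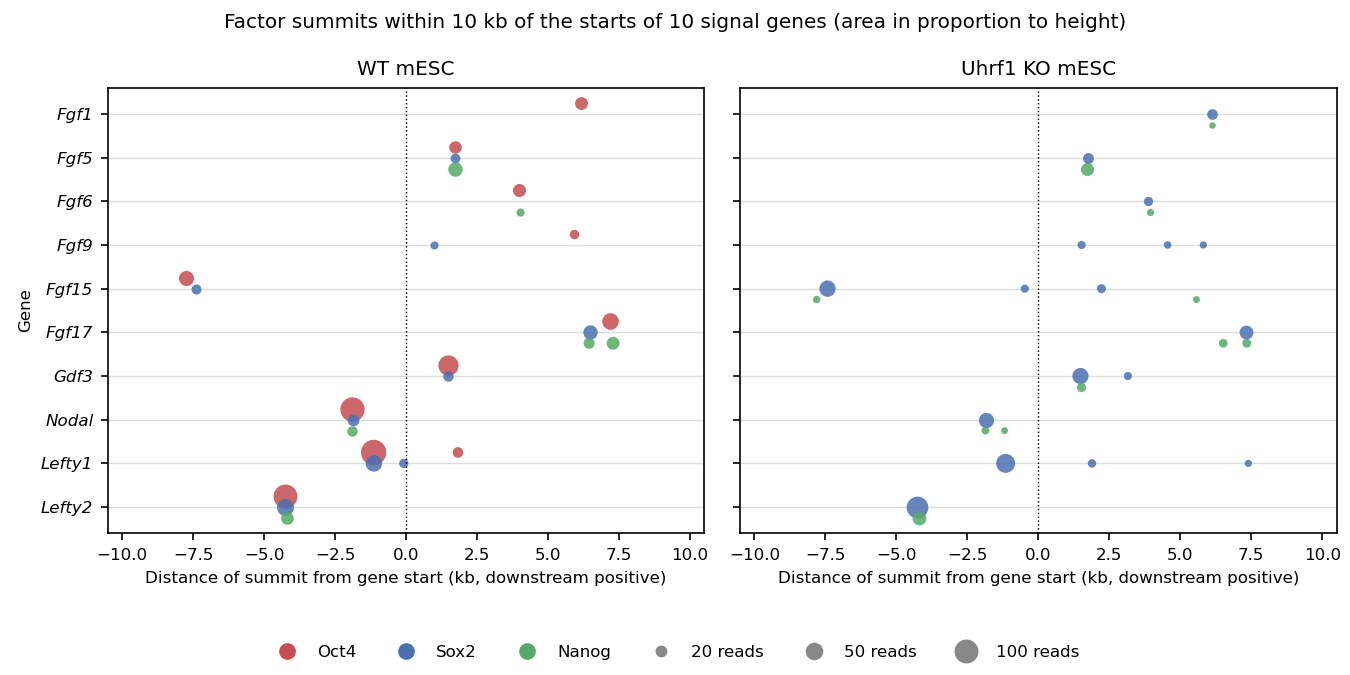
Summits of Oct4 (red), Sox2 (blue) and Nanog (green) within 10 kb of the starts of the 10 genes with a WT Oct4 summit, by distance from the start (kb), in WT (left) and Uhrf1 KO (right) mESC, with marker area in proportion to height in reads. Oct4 is absent on the right, where Sox2 stands at or near 9 of the 11 WT Oct4 positions.

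H3K9me3, a mark of silent heterochromatin, lay within 5 kb of 7 signal genes in WT mESC (15.9%, against 29.7% of all genes) and 13 in KO (29.5%, against 40.1%), below the background in both. Only Fgf14, Fgf18 and Fgf20 had it in both. Fgf6, Fgf9, Fgf12 and Bmp6 had it in WT only, and Fgf7, Fgf10, Fgf11, Fgf17, Bmp5 and Gdf11 in KO only. Nodal, Lefty1, Lefty2 and Gdf3 also had it in KO only. Their domains measured 72.0 kb at Nodal, 565 kb shared by both Lefty genes and 1202 kb at Gdf3. The mean counts there were 10.2 to 11.8 reads per bin against a list median of 10.9, and H3K4me3 covered 82.4 to 100% of the window at the same 4 starts. The KO list was broader, with a median domain of 140400 bp against 37800 bp.

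Uhrf1, which binds hemimethylated DNA and H3K9me3, had a 10 kb window within 5 kb of 2 signal genes in WT mESC (4.55%, against 6.10% of all genes). They were Fgf10, of lung and limb budding, with a window 1.4 kb from its start, and Fgf14, 3.65 kb away. Across whole genes and 10 kb upstream Fgf12 was added (12.2% of all genes). Both Fgf10 and Fgf14 were repressive in WT mESC and unmarked in KO, as were 5 signal genes with no such window.

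The sequence around the starts was examined as a feature the choice of genes did not use. CpG content was taken as the observed over expected CpG ratio within 500 bp of the start. Its median was 0.53 over the signal genes, from 0.18 at Fgf23 to 1.08 at Bmp2, against 0.55 over all coding genes. By WT mESC class the groups parted: the 12 active signal genes had a median of 0.36 against 0.72 for all active genes, the 20 bivalent ones 0.68 against 0.69, and the 10 repressive ones 0.54 against 0.19. Lefty1 (0.27), Lefty2 (0.28) and Inha (0.25) were among the active genes with few CpGs.

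The 250 bases upstream of 4 starts are shown 5′ to 3′ on the strand of the gene, with each CpG in capitals, for the gene with H3K27me3 in WT and none in KO throughout, next to H3K4me3 in both (Bmp4), both that stayed bivalent (Gdf6 and Ihh) and a gene with a Uhrf1 window (Fgf10). They are chr14:47010345-47010594 on the minus strand, chr4:9771269-9771518 on the plus strand, chr1:74998247-74998496 on the minus strand and chr13:119458348-119458597 on the plus strand of mm9, and hold 11, 19, 24 and 5 CpGs.
Bmp4: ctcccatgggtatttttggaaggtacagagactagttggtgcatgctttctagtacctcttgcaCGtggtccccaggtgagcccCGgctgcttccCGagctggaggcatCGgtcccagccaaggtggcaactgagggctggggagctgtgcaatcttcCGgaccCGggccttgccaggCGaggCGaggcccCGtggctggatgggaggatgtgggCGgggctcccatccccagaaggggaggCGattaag
Gdf6: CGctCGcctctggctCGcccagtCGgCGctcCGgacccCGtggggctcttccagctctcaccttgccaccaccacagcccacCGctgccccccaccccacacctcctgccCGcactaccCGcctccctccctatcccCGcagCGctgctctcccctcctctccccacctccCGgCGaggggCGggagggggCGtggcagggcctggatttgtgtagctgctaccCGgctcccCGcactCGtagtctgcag
Ihh: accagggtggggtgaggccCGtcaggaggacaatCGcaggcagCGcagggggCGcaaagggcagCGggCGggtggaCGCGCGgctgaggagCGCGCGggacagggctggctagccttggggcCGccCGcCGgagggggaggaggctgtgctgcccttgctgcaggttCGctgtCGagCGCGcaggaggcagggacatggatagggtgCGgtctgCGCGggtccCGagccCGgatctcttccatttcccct
Fgf10: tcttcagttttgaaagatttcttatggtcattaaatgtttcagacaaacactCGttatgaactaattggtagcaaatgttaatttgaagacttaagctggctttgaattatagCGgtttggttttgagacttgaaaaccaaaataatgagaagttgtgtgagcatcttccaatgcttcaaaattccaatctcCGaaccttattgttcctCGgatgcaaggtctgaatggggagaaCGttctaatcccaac

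The receptors, transducers and targets of these signals were read in the same way. Of 70 such genes the bivalent ones numbered 29 in WT mESC against 2 in KO (18.3 and 4.29% of all genes). Of the 29, 23 were active in KO (60.5% of all bivalent genes), among them the receptor genes Fgfr1, Tgfbr1 and Bmpr1b and the Hedgehog receptor gene Ptch1. These counts rest on the short KO mESC H3K27me3 list, of 722 domains against 8161 in WT. Lists of equal number were not tried for these genes. The bivalent counts in WT and KO were 19 and 15, 19 and 17, and 24 and 16 at the EB stages in turn. Over all genes the shares were 15.2 and 10.7%, 13.7 and 13.4%, and 19.6 and 11.3%. The class differed at 42.9% of them in mESC and 18.6, 14.3 and 11.4% at weeks 1, 2 and 3, against 36.4, 18.1, 29.0 and 23.0% of all genes. All 8 Smad genes were active in both genotypes at weeks 1, 2 and 3. Of 13 antagonists, among them Nog, Chrd and Fst, 7 had a bivalent promoter in WT mESC against 0 in KO, and 5 differed at week 1, again against 18.3, 4.29 and 18.1% of all genes. Among 12 Hedgehog pathway genes at week 3, 8 were bivalent in WT. Of these 8, 4 were active in KO, namely Smo, Boc, Gli2 and Gli3, a share near the 46.8% of all bivalent genes. No other Hedgehog pathway gene differed there.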

How the data were processed

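ChIP-seq lists of 25 libraries were used, 18 of histone domains, 6 of factor summits and 1 of Uhrf1 windows, and 8 input samples were not used here. Per the submitters' processing notes reads were aligned to mm9 with Bowtie2 2.1.0 and summits called with MACS. The authors called domains with RSEG against input and deposited 2 values for each, the signal (mean reads in a bin) and a score, which is larger for domains of more bins. The deposited signal of a summit is its height in reads. The authors scaled ChIP-seq reads to the mapped total, but the sources used here do not say whether the deposited counts and heights were scaled, and read totals were not used here. Uhrf1 windows of 10 kb carry no score.

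Samples were grouped by GEO's labels, with 1 library per group and no test. Gene starts were the 5′ ends of GENCODE genes on NCBIM37. A promoter was marked when a domain shared at least 1 bp with 2 kb (H3K4me3) or 5 kb (H3K27me3, H3K9me3, Uhrf1) either side of the start, and summits within 100 bp counted as 1 site. Python 3.11, numpy 2.4.6, scipy 1.17.1 and matplotlib 3.10.9 were used. Overlap calls were tested on simulated data, with 0 wrong. The members and gene lists were chosen with earlier results of these data known. All members are named, with classes and domain lengths for ligands with known early roles and for those whose class differed at 3 or more stages or at none, and with heights for the tallest Oct4 sites. Sequences are given for the 4 tallest Oct4 sites, and the others are not reported here. Disp1 and the marker Sox1 matched no gene. Alternatives were other windows, score and coverage minimums, lists of equal number and other starts.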

Additional observations from a re-analysis of the deposited data

Results flagged for a closer look

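The number of signal genes with H3K27me3 in KO minus that in WT was -23 in mESC, and 1, -5 and -14 at weeks 1, 2 and 3. The sign at week 1 was opposite to that at the other stages, and the difference between stages was not tested. Over all coding genes 20.5% had the mark in WT and 21.1% in KO at week 1, against 34.9 and 7.57% in mESC. The H3K27me3 lists covered 959.7 Mb in WT and 84.1 Mb in KO in mESC, and 101.3 and 180.1 Mb at week 1. At week 2 they covered 1165.0 and 466.8 Mb, and at week 3 791.4 and 419.9 Mb. The part of list coverage in the sign was not tested.

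Single genes also moved in opposite directions between stages, again untested. Fgf3 carried H3K4me3 in KO but not WT at 1 stage and in WT but not KO at 2. H3K27me3 was present in KO but not WT at 1 stage, and the reverse at 1 or more others, at Fgf6 (1 other), Fgf15 (3), Fgf23 (1), Bmp6 (2), Lefty1 (1) and Inhbb (2), and at 2 stages against 1 at Fgf21. The Fgf15 and Fgf21 calls include domains of the KO mESC list with mean counts of 0.00420 and 0.328 reads per bin.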

How the results depend on the processing

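No paired analysis was possible because each genotype, stage and target had 1 library, and for the same reason no replicate was left out. Of 136 recomputed values for the main results, 93 lay within 1.5 times the value reported.

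With domains at or above the median score, bivalent genes numbered 8, 10, 13 and 14 in WT and 1, 5, 8 and 5 in KO at mESC and weeks 1, 2 and 3. With 50% of the window covered they numbered 13 and 17 in WT at weeks 1 and 3, and 2 and 4 in KO in mESC and at week 1. With lists of equal number, 6 and 15 were bivalent in WT in mESC and at week 3, and the class differed at 18 and 9 there. With KO H3K27me3 domains held to the lowest WT mean count, an alternative chosen after seeing the data, 1 and 4 were bivalent in KO in mESC and at week 3, and the class differed at 27 at week 3. The class differed at 1 or more stages at 39 genes, and at 29 without mESC.

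Oct4 summits in WT lay near 6 genes within 5 kb, 22 within 50 kb, 21 by nearest start, 6 at or above the median height and 3 with equal lists, and in KO near 2 within 50 kb and 1 by nearest start. Sox2 in WT lay near 16 within 50 kb, 14 by nearest start and 5 at or above the median height, and in KO near 14 at or above the median height and 6 with equal lists. Nanog in WT lay near 11 within 50 kb and 10 by nearest start, and in KO near 6 within 5 kb, 20 within 50 kb, 20 by nearest start and 2 with equal lists. A Uhrf1 window lay within 2 kb of 1 gene. Over 2-fold shorter H3K4me3 was counted at 2, 7, 2 and 2 genes at the 4 stages by length within 2 kb, and at 3 at week 1 at or above the median score.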
